A study of Homo sapiens with 3 samples.

Results

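The genes of the cytosolic translation initiation and elongation factors were followed in RCC4 cells, a human line from a clear cell renal carcinoma, after treatment with inflammatory cytokines. They are the rows whose name starts with EIF or EEF and a digit, without the EIF2AK kinases and without names that end in P and a number. The rule found 63 of 60605 gene rows, and it used no measured value. All 3 libraries belonged to 1 group of biological replicates, each from 3 flasks of RCC4 cells that carried a lentiviral Cas9 vector and had received IFN-gamma at 1000 U/mL and TNF at 25 ng/mL for 24 h. No untreated cells were analysed here, so levels after treatment and ratios between genes can be described but effects of the cytokines cannot, and no test between groups could be made. One member lies on the Y chromosome: it is counted, and enters the median over all 63, but its level is not printed.

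Initiation factors bring the small ribosomal subunit with the initiator tRNA to the capped end of an mRNA, move it to the start codon and join the large subunit. Elongation factors then deliver each aminoacyl-tRNA and move the ribosome along the message. Many mRNAs of this machinery begin with a terminal oligopyrimidine tract, a run of C and T bases at the very start through which mTOR signalling controls their translation, and phosphorylation of the initiation factor EIF2 is the other main brake on protein synthesis, used in interferon-treated cells by the kinase EIF2AK2.

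Assigned reads numbered 29199806 in replicate 1, 26264283 in replicate 2 and 33458691 in replicate 3. Markers of renal carcinoma epithelium (PAX8, PAX2, KRT8, KRT18, KRT19, CA9, EPAS1 and VIM) were detected in 8 of 8 cases, against 0 of 4 leukocyte and 0 of 3 endothelial markers. The share of all protein-coding genes was 51.4%. PAX8, at a mean of 1.46 RPKM, had 95.7% of its exon length inside other genes. One of the leukocyte markers at 0, CD68, lies wholly inside other genes, a position in which few genes had reads here. Of 5 fibroblast markers only COL1A1 was detected, at a mean of 0.754 RPKM. Replicate 1 stood apart from replicates 2 and 3 in a way that followed the GC content of the transcripts, and values without it are given where they changed a call. Levels are given as RPKM, the CPM (library-scaled reads, with TMM) per kilobase of exon, and errors are SD over 3 libraries. A gene was called detected at 1 CPM or more in every library.

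Of the 63 members, 50 were detected, beside 51.4% of all protein-coding genes (10201 of 19861). The median level was 11.7 RPKM over all 63 members, 12.01 RPKM over the 62 that are not on the Y chromosome and 18.8 RPKM over the detected ones. Detected protein-coding genes had a median of 6.09 RPKM. The members together took 2.25%, 1.99% and 2.07% of all reads in replicates 1, 2 and 3. Most of these reads came from 2 genes: EEF1A1 and EEF2 held 60.4% ± 1.63 of the members' reads (n = 3). The EIF3 subunits followed with 12.4% ± 0.543 and the EIF4 proteins with 12.5% ± 0.42, whereas the subunits of EIF2 held 2.62% ± 0.365 and those of its exchange factor EIF2B 1.16% ± 0.0173. These are shares of counted reads. EIF4A1, EEF1G and EIF3C, listed at 0, add nothing to them, and the mostly covered EIF2S2 and EIF4B add few reads. The SDs do not include this limit.

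**Figure D1:**
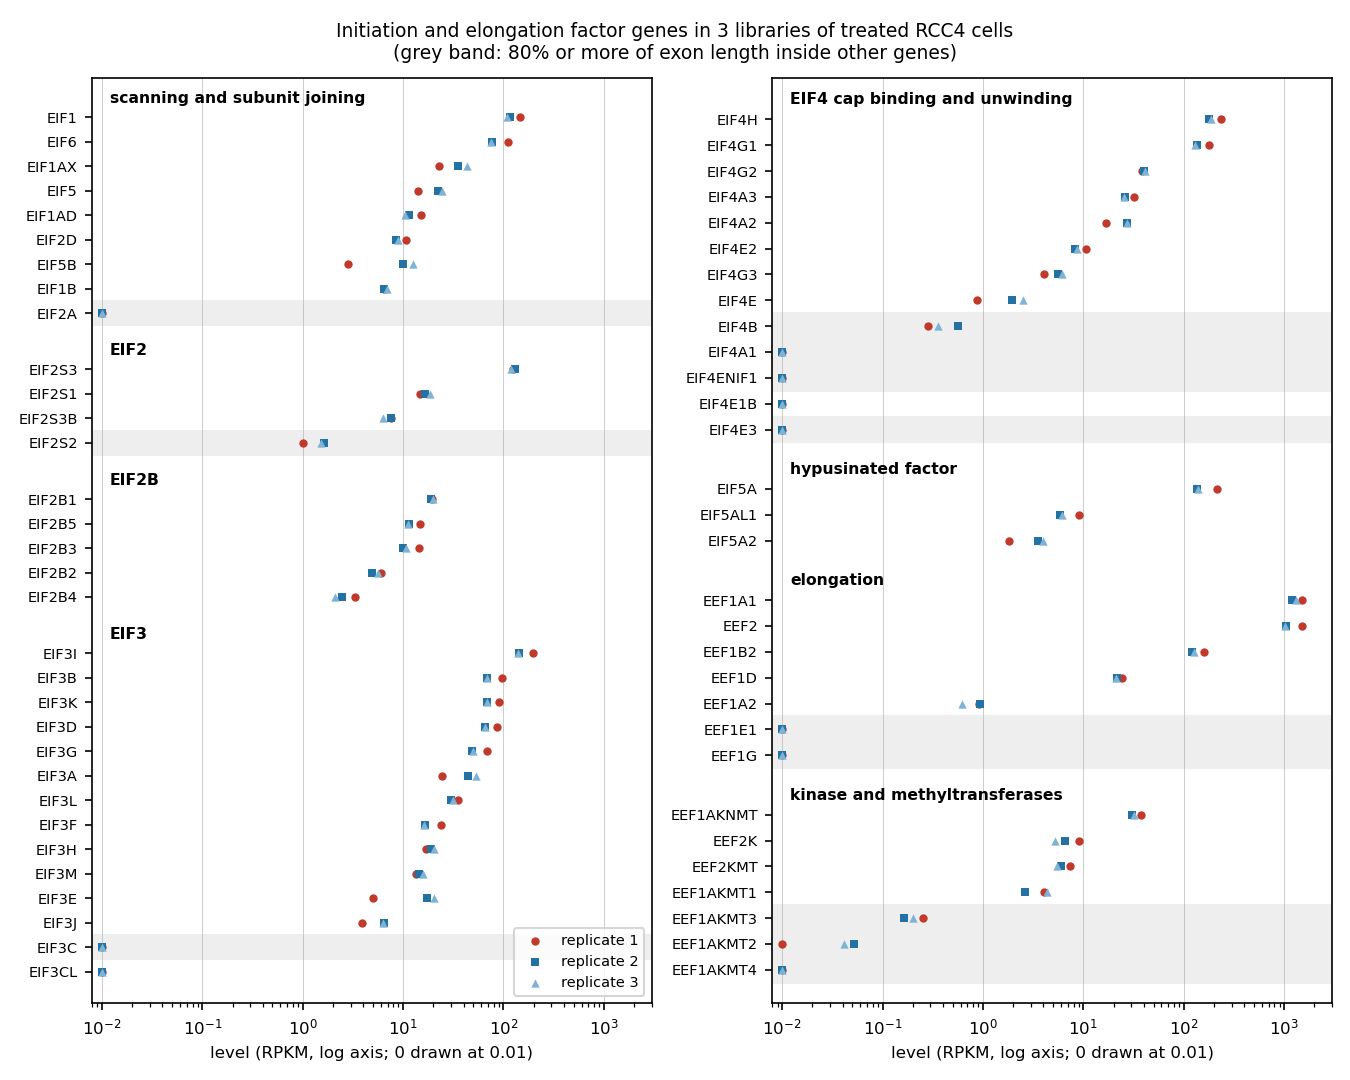
Level of each member (RPKM, log axis, with 0 drawn at 0.01) in replicates 1, 2 and 3, grouped by role and ordered by mean, with grey bands for genes that have 80% or more of their exon length inside other genes. EEF1A1 and EEF2 lie above 1000 RPKM in each library, and most members at 0 lie in a grey band.

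Absence of reads went with the position of a gene inside its neighbours. For 12 members, 80% or more of the exon length lay within the spans of other genes on either strand, and 2 of these 12 were detected (EIF2S2 and EIF4B), beside 8.69% of protein-coding genes so placed (276 of 3177). Of the 51 other members, 48 were detected, beside 59.5% of protein-coding genes with less overlap (9925 of 16684). Between 40% and 60% overlap all 6 members were detected, beside 62.3% of protein-coding genes so placed (545 of 875).

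Among the genes listed at 0 in every library were several that are required for translation in every cell. EIF4A1, the main RNA helicase of the cap-binding complex (GRCh38 chr17:7572706-7579005), had 0 reads in each library, and 100% of its exon length lay within same-strand read-through and non-coding genes, of which SENP3-EIF4A1 had 8, 12 and 12 reads. EEF1G, a subunit of the exchange factor of EEF1A (chr11:62559601-62574086), was listed at 0 with 99.9% of its exons inside RP11-864I4.1, which had 66, 24 and 37 reads. The other covered members at 0 were EEF1E1, a component of the multi-tRNA-synthetase complex, the EEF1A methyltransferase EEF1AKMT4, the cap-binding protein EIF4E3, the EIF4E transporter EIF4ENIF1, EIF2A, an alternative initiation factor, and the EIF3 core subunit EIF3C. The covering gene can be on the other strand: EIF2A lay within SERP1, which had 2849, 2822 and 3986 reads, and EIF4ENIF1 within DRG1, which had 2820, 2000 and 2842. A count of 0 allows up to 3 reads per library, or 0.110, 0.110 and 0.0862 CPM, for counting error alone and if reads are independent. Fewer genes had 1 read than 2 in each library, so the limit may be higher. For these genes 0 reads therefore describe the count table, and whether the cells lacked the mRNA was not tested.

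Outside covered positions, 2 members were listed at 0, EIF4E1B, a germ-cell form of the cap-binding protein, and EIF3CL. EIF3CL is a near-identical copy of EIF3C: their coding sequences were 100% identical over 2742 bases, 98.7% of the 50-base words of EIF3CL occurred in EIF3C and 96.8% of those of EIF3C in EIF3CL, so most reads from either would match both. Whether this bears on the 0 counts was not tested. The methyltransferases EEF1AKMT2, with 0, 6 and 6 reads, and EEF1AKMT3, with 22, 14 and 22, were covered and below detection. EIF2S2 (72, 117 and 141 reads) and EIF4B (47, 94 and 77 reads) passed detection, although 91.1% of the exon length of EIF2S2 and 93.7% of that of EIF4B lay inside other spans. The table gives reads per gene and does not show where in the gene they fell. With the uncovered length alone as the divisor, the log2 level of EIF2S2 moved from 0.54 to 3.93 and that of EIF4B from -1.03 to 2.64.

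**Figure D2:**
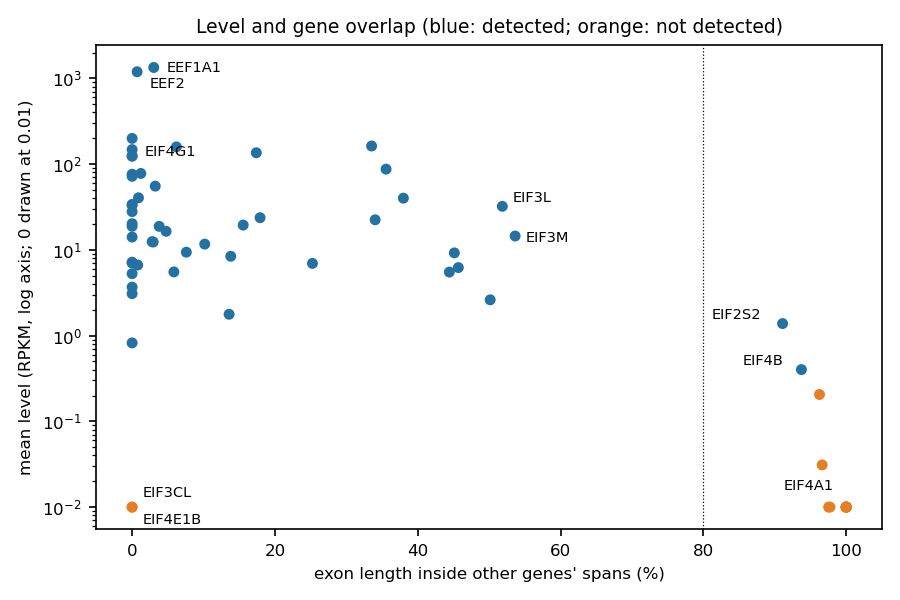
Mean level of each member (RPKM, log axis, with 0 drawn at 0.01) against the percentage of its exons that other genes' spans contain, with detected members in blue and the others in orange. To the right of the dotted line at 80% only EIF2S2 and EIF4B of 12 members are blue.

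Elongation factors held the 2 highest levels of all members. EEF1A1, the GTPase that carries aminoacyl-tRNA to the ribosome (chr6:73515750-73523797), had 1515, 1203 and 1301 RPKM in replicates 1, 2 and 3, and ranked 3 among protein-coding genes by mean CPM. EEF2, the GTPase that moves the ribosome by a codon (chr19:3976056-3985469), had 1499, 1054 and 1030 RPKM and ranked 8. The levels of these partners could not be separated, with a log2 ratio of 0.18 ± 0.16 whose size was less than 2 SD. That call rests on replicate 1 and on length and GC content. The ratio was 0.26 and beyond 2 SD without replicate 1. It was 0.74 on CPM with no length scaling and 1.21 after correction for GC content. For gene pairs this correction subtracts from each level the median level of genes of like GC content in that library. It therefore also removes level differences between genes of unlike GC content, whatever their origin. EEF1B2, a nucleotide exchange subunit for EEF1A, had 160, 120 and 127 RPKM, and EEF1D, another such subunit, 24.5, 21.8 and 21.0. EEF1B2 was thus higher than EEF1D, by a log2 ratio of 2.58 ± 0.12 per exon length, but by only 0.30 on CPM with no length scaling. EEF1A2, the form of EEF1A typical of muscle and neurons, was detected at only 0.908, 0.937 and 0.621 RPKM (121, 125 and 106 reads), 1466-fold below EEF1A1. A pair is called past the replicate spread here when its log2 ratio has the same sign in all 3 libraries and a mean beyond 2 SD, and both of these differences passed.

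Of 9 members whose mRNAs are known to start with a terminal oligopyrimidine tract (EEF1A1, EEF1B2, EEF1D, EEF1G, EEF2, EIF3E, EIF3F, EIF3H and EIF4B), 8 were detected, with a median of 18.8 RPKM over the 9 and 20.6 over the 8. The 53 others with a level had 42 detected, with a median of 9.22 RPKM over all and 15.5 over the detected. Both counts stand beside 51.4% of all protein-coding genes. Of the 9 listed members 2 were covered, and of the 53 others 10 were. The difference between the medians was not tested. The starts of the 3 highest elongation factors, and of EIF3F and EIF4B from the same list, are printed because they show the feature that names the class. EEF1G is printed as the listed member whose RefSeq start lacks it. The 2 abundant initiation factors EIF4H and EIF3B, outside the list, are printed as further starts without it. Other members outside the list do have such runs, as EIF2S3 with 12 bases and EIF3D with 11. Each line holds 10 bases before and 20 bases from the RefSeq start (GRCh38.p14), 5′ to 3′ on the gene's strand, and capitals mark the first run of at least 5 C or T bases that begins with C within 5 bases of that start.
EEF1A1: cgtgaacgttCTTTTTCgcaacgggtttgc
EEF2: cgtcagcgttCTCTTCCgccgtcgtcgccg
EEF1B2: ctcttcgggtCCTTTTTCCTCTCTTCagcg
EIF3F: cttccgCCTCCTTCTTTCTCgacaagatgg
EIF4B: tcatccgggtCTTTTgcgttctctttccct
EEF1G: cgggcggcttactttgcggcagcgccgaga
EIF4H: ctcgctcaccctggttcctctcggagcgga
EIF3B: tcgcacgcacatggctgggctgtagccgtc

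These windows are chr6:73521013-73521042 on the minus strand for EEF1A1, chr19:3985444-3985473 on the minus strand for EEF2, chr2:206159885-206159914 on the plus strand for EEF1B2, chr11:7987327-7987356 on the plus strand for EIF3F, chr12:53006446-53006475 on the plus strand for EIF4B, chr11:62573872-62573901 on the minus strand for EEF1G, chr7:74174346-74174375 on the plus strand for EIF4H and chr7:2354817-2354846 on the plus strand for EIF3B. EEF1A1 and EEF2 have the run directly at the annotated start, as does EEF1B2 at the start shown. A second RefSeq start of EEF1B2, whose window is chr2:206159599-206159628, has no such run. Of the 6 listed members with a start in the RefSeq table, 5 had such a run, against 18 of 45 other members and 25.2% of all 27305 gene symbols at any of their starts. The run was searched on the sense strand only, and a match describes the letters at an annotated start, not the start used in these cells.

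Among the factors that scan for the start codon and join the subunits, 8 of 9 were detected, beside 51.4% of all protein-coding genes. EIF1, which guards start codon choice, had 145, 117 and 110 RPKM, and EIF6, which keeps the large subunit from joining too early, had 110, 76.7 and 75.3. Both were highest in replicate 1. EIF1 was 18.2-fold above its paralogue EIF1B, at 6.49, 6.51 and 6.98 RPKM, a log2 ratio of 4.19 ± 0.26. EIF1AX, the scanning factor that occupies the aminoacyl site, went the other way between libraries with 22.7, 35.4 and 43.4 RPKM. EIF5, the GTPase activator of EIF2, had 14.2, 22.1 and 24.3 RPKM, and EIF5B, the GTPase that joins the subunits, 2.81, 9.96 and 12.5. These 3 were lowest in replicate 1. EIF1AD, a protein with an EIF1A domain, lay at 12.3 ± 2.47 RPKM, and EIF2D, which can bind initiator tRNA without GTP, at 9.40 ± 1.19. EIF5 exceeded EIF5B by a log2 ratio of 1.46 ± 0.73, which no longer passed 2 SD without replicate 2 (1.63) or over the uncovered exon length (1.25).

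EIF2 is the trimer that carries the initiator tRNA, and its 3 subunits were not listed at equal levels. EIF2S3, the GTP-binding gamma subunit, had 124, 129 and 119 RPKM. EIF2S1, the alpha subunit that EIF2AK2 and the other stress kinases phosphorylate, had 14.6, 16.4 and 18.3, which is 7.56-fold lower (log2 ratio -2.92 ± 0.20). EIF2S2, the beta subunit, had 0.998, 1.62 and 1.53 RPKM and was 11.3-fold below EIF2S1 over the full exon length. Over uncovered exon length the log2 ratio of EIF2S1 to EIF2S2 was 0.18 instead of 3.50 and did not pass 2 SD. EIF2S3B, a copy of EIF2S3 with 98.2% identical coding bases, was listed at 7.63, 7.66 and 6.26 RPKM, and 41.0% of its 50-base words occur in EIF2S3, so its reads are uncertain. All 5 EIF2B subunits, which recharge EIF2 with GTP, were detected, beside 51.4% of all protein-coding genes. EIF2B1 had 19.3, 19.0 and 20.1 RPKM, and EIF2B5, the catalytic subunit, 12.4 ± 1.98. EIF2B3 had 11.7 ± 2.26 RPKM, EIF2B2 5.51 ± 0.584 and EIF2B4 2.61 ± 0.618, with 44.4% and 50.1% of the exon length of the last 2 inside other genes. EIF2B5 lay below EIF2B1 by a log2 ratio of -0.65 ± 0.23 per exon length, but above it by 0.33 on CPM, so this order depends on the length scaling, and without replicate 2 (-0.61) it did not pass 2 SD.

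EIF3, the large scaffold that holds the small subunit, is built of subunits in equal number. Of its 14 gene rows 12 had reads, and the 2 at 0 were EIF3C and EIF3CL. Per exon length, the 12 spanned a 28.7-fold range, and 11.3-fold without the loosely bound EIF3J. On this scale EIF3I, a small subunit with WD repeats, was highest at 195, 141 and 140 RPKM. EIF3B, the core scaffold, had 96.5, 68.4 and 68.6 RPKM, EIF3K 91.1, 68.5 and 69.1, and EIF3D, which can itself bind the cap of some mRNAs, 85.8, 65.1 and 65.3. Each of these 4 was highest in replicate 1. EIF3G had 55.4 ± 11.2 RPKM and EIF3L 32.2 ± 2.95, and EIF3F and EIF3H had 18.8 ± 4.28 and 18.8 ± 1.77. At the low end were EIF3M with 13.5, 14.3 and 15.7 RPKM, EIF3E with 5.03, 17.2 and 20.1, and EIF3J with 3.86, 6.39 and 6.34. The order at the top depends on the length scaling. By mean CPM EIF3B was highest at 700, above EIF3D (293), EIF3A (287) and EIF3I (274). EIF3M, EIF3E and EIF3J were lowest by mean CPM too, at 108, 84.7 and 17.7. EIF3E and EIF3J were lowest in replicate 1, as was EIF3A, the largest subunit, with 24.2, 44.2 and 53.0 RPKM. In all, the 5 subunit genes with a transcript GC content of up to 44.5% (EIF3E, EIF3J, EIF3M, EIF3H and EIF3A) were lowest in replicate 1, and the 7 others were highest in it. Of all detected genes 43% were lowest and 48.5% highest in replicate 1. Their median log2 ratio of replicate 1 to the others was -0.71 under 45% GC and 0.24 from 45% up. The split is thus not known to be particular to EIF3. The spread among the 12 subunits was wider in replicate 1, with an SD of 1.75 on the log2 scale against 1.26 and 1.25 in replicates 2 and 3. EIF3A lay below EIF3B by a log2 ratio of -0.997 ± 0.87, which was less than 2 SD, and by -0.50 without replicate 1, which was past it.

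**Figure D3:**
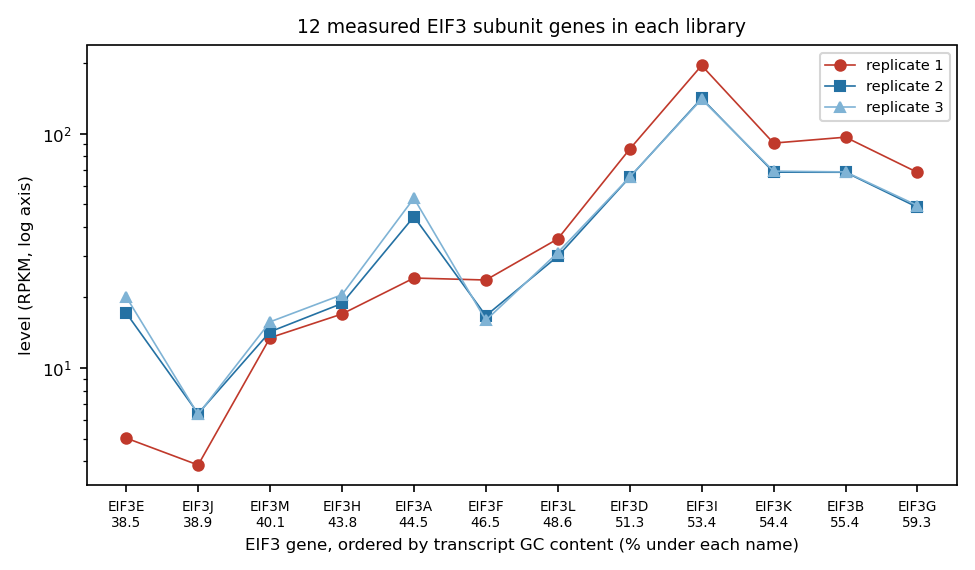
Levels (RPKM, log axis) of the 12 EIF3 genes with reads in replicates 1, 2 and 3, ordered by transcript GC content, which is written in percent under each name. The replicate 1 line runs below the other 2 at the low-GC end, as for EIF3E at 5.03 RPKM, and above them at the high-GC end.

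Of the cap-binding and unwinding proteins 9 of 13 were detected, beside 51.4% of all protein-coding genes. EIF4H, a cofactor that stimulates the EIF4A helicase, had 233, 179 and 186 RPKM, and EIF4G1, the scaffold that ties the cap to the ribosome, 177, 137 and 129. EIF4G1 exceeded EIF4G2, a scaffold that lacks the EIF4E-binding site (38.4, 40.7 and 41.1 RPKM), by 3.65-fold, and its close relative EIF4G3 (4.09, 5.65 and 6.09 RPKM) by 27.6-fold. The ratio of EIF4G1 to EIF4G2 fell from 1.87 to 1.178 on the log2 scale over uncovered exon length and to 1.03 after GC correction. With EIF4A1 at 0, the helicase genes with reads were EIF4A2, the second cytosolic form, at 16.8, 27.2 and 27.2 RPKM, and EIF4A3, which belongs to the exon junction complex, at 32.3, 26.1 and 25.4. EIF4A1 and EIF4A2 shared 77.3% of coding bases.

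EIF4E, which binds the cap and is held in check by the EIF4E-binding proteins, was listed at 0.874, 1.97 and 2.48 RPKM (334, 752 and 1213 reads). This was 84.5-fold below EIF4G1, its partner, and lower than EIF4E2, a cap-binding protein that represses translation, at 10.7, 8.18 and 8.72 RPKM. The log2 ratio of EIF4E to EIF4E2 was -2.42 ± 0.92 per exon length, -1.64 after GC correction, and -1.52 on CPM, where it no longer passed 2 SD. EIF4B, the other stimulator of the helicase, had 0.282, 0.563 and 0.360 RPKM, and its log2 ratio to EIF4H was -8.67 ± 0.59 over all exons and -4.99 over uncovered length.

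**Figure D4:**
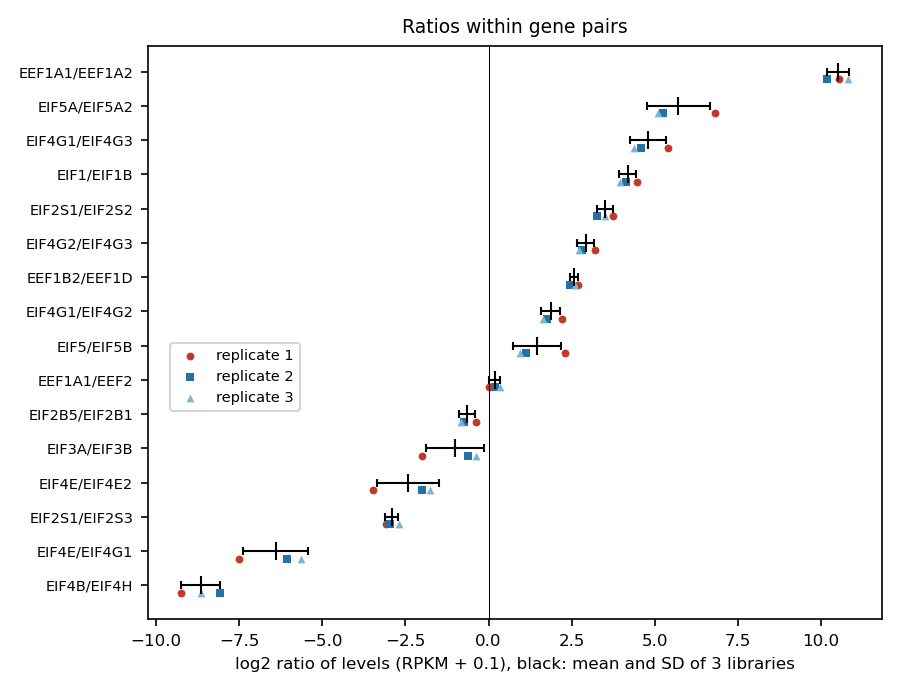
Log2 ratio of the levels (RPKM + 0.1) of 2 members in each library for 16 gene pairs, with the mean and SD over 3 libraries in black. EEF1A1/EEF1A2 lies farthest right at 10.52 and EIF4B/EIF4H farthest left at -8.67, and the 2 pairs that did not pass the replicate spread are EEF1A1/EEF2 and EIF3A/EIF3B.

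Of 21 gene pairs listed, 16 had enough reads to be formed and 14 of them passed the replicate spread. The 5 not formed each held a gene at 0 (EIF4A1, EIF4E3 or EEF1G). The size of many ratios depended on the scaling. After GC correction the log2 ratio was 3.41 for EIF1/EIF1B, -5.08 for EIF4E/EIF4G1, -2.26 for EIF2S1/EIF2S3, 4.07 for EIF4G1/EIF4G3, 11.47 for EEF1A1/EEF1A2 and 0.74 for EIF5/EIF5B. On CPM it was 5.12 for EIF1/EIF1B, -5.72 for EIF4E/EIF4G1, -2.22 for EIF2S1/EIF2S3 and 4.77 for EIF5A/EIF5A2. Without replicate 1 it was 1.05 for EIF5/EIF5B, -1.89 for EIF4E/EIF4E2, -5.85 for EIF4E/EIF4G1 and 5.17 for EIF5A/EIF5A2. None of the ratios in these 3 sentences changed direction.

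EIF5A is the factor that helps the ribosome through stretches such as consecutive prolines, and the only kind of protein known to carry hypusine, a modified lysine. Its gene (chr17:7306999-7312463) had 213, 136 and 138 RPKM, highest in replicate 1. The paralogue EIF5A2 (chr3:170888415-170908693), often linked to tumours, had 1.80, 3.50 and 3.94 RPKM (274, 532 and 767 reads), lowest in replicate 1. EIF5A was 52.6-fold higher, a log2 ratio of 5.72 ± 0.95 that fell to 3.97 after GC correction. EIF5AL1, a copy of EIF5A, was listed at 9.12, 5.86 and 6.14 RPKM, with 98.9% identical coding bases and 11.6% of its 50-base words in EIF5A, so part of its reads cannot be placed. The coding stretch around the hypusine site (coding bases 124 to 174 of the GENCODE 29 transcripts) is printed because it shows how far the 3 genes can be told apart by sequence, with capitals on codon 50, which encodes the modified lysine.
EIF5A: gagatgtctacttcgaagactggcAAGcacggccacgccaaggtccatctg
EIF5A2: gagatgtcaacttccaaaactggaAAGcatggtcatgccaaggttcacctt
EIF5AL1: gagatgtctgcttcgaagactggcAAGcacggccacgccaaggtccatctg

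EIF5A and EIF5A2 encode the same residues here with 10 differing bases, and the stretch holds 56.9% GC in EIF5A and 45.1% in EIF5A2. EIF5AL1 differs from EIF5A by 1 base in this stretch, and that change alters a residue. Over the whole coding sequence EIF5A and EIF5A2 were 72.1% identical and shared no 50-base word, so their reads are separable.

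Of 7 enzymes that modify the elongation factors 4 were detected, beside 51.4% of all protein-coding genes. These 4 had a median of 6.58 RPKM, beside 6.09 for all detected protein-coding genes. The other 3 (EEF1AKMT2, EEF1AKMT3 and EEF1AKMT4) were covered. EEF1AKNMT, which methylates EEF1A, had 37.4, 30.6 and 31.7 RPKM. EEF2K, the kinase that inhibits EEF2 and so slows elongation, had 9.08, 6.57 and 5.20, and EEF2KMT, which methylates EEF2, 6.21 ± 0.966. EEF1AKMT1, another EEF1A methyltransferase, had 3.67 ± 0.905 RPKM.

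Replicate 1 differed from the other libraries for a set of members. On the log2 CPM scale 5 of 50 detected members were more than 2-fold lower in replicate 1 than the mean of replicates 2 and 3, beside 12.9% of all detected genes: EIF5B (-1.99), EIF3E (-1.89), EIF4E (-1.34), EIF5A2 (-1.04) and EIF3A (-1.01). None was more than 2-fold higher, beside 0.186% of detected genes, and the members farthest up were EIF5A (0.64), EEF2K (0.62) and EIF5AL1 (0.60). Replicates 2 and 3 differed by no more than 0.69 for any detected member, with 0 members past 2-fold beside 0.142% of all detected genes. With only 1 group, a difference in the cells of replicate 1 and one in its library cannot be told apart.

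These differences went with base composition. In all, 17 of 50 detected members were lowest in replicate 1, beside 43% of all detected genes, and 28 were highest in it, beside 48.5%. Of 16 detected members with a transcript GC content under 45%, 14 were lowest in replicate 1, with a median ratio of -0.70, and the median of all detected genes under 45% was -0.71. Of the 34 others, 28 were highest in replicate 1, with a median of 0.37 against 0.24 for all detected genes of that range. The shares of all detected genes so placed within each GC range were not computed. The counts of 14 and 28 are thus not known to be particular to the members. Across the 50 members the Spearman rho of GC content and the ratio was 0.762 and Pearson's r was 0.677, and across all detected genes rho was 0.731. These are descriptions of 3 libraries, whose genes share the same reads and are not replicates. When the median of all genes of like GC content was subtracted, 0 of 50 members remained past 2-fold, beside 5.73% of detected genes: EIF5B stood at -0.89, EIF3A at -0.78, EIF4E at -0.43, EIF3E at -0.38, and EIF5A2 changed sign to 0.47.

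**Figure D5:**
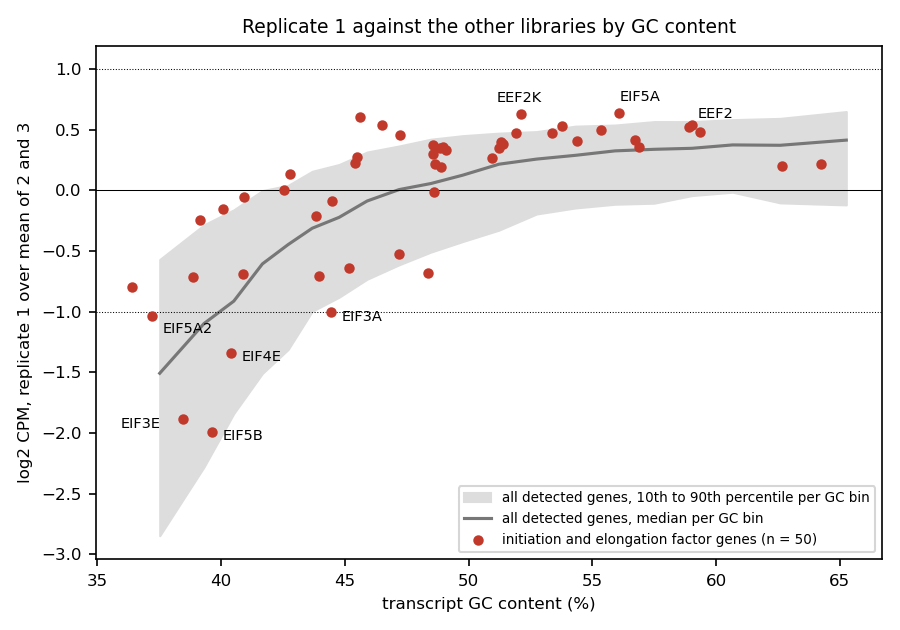
Log2 ratio of the CPM in replicate 1 to the mean of replicates 2 and 3 against transcript GC content (%), for 50 detected members (red) and all detected genes (grey line, median per GC bin, with the 10th to 90th percentile shaded). The members tend to rise with GC content, as the grey line does, and the lowest ratio is that of EIF5B (-1.99) and the highest that of EIF5A (0.64). They scatter about that line, from EIF5B at -0.89 below its GC bin median to EIF1B at 0.86 above.

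Examples with a wide contrast in base composition are printed here. For EIF5B and EIF4E, low in replicate 1, and EEF2K, high in it, the 60 coding bases whose GC content is nearest to that of the whole coding sequence are printed with G and C in capitals.
EIF5B: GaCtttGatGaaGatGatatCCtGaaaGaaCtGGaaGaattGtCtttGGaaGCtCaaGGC
EIF4E: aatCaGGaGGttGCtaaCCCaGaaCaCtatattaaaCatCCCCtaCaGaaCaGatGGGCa
EEF2K: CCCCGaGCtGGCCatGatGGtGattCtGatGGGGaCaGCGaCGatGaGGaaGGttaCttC

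These are coding bases 154 to 213 of EIF5B, 73 to 132 of EIF4E and 55 to 114 of EEF2K in GENCODE 29, whose whole coding sequences hold 39.4%, 42.5% and 57.3% GC. The contrast is smaller for EIF5A and EIF5AL1, also high in replicate 1, with 51.4% and 51.2%. EIF5A2, low in it, holds 42.4%.

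Most partners and regulators of these factors were detected, in the lists of this and the following paragraphs. The background is 51.4% of all protein-coding genes, or 59.5% of those with under 80% of their exons inside other genes. The lists are short, and their counts were not tested against these shares. Of 12 cap and poly(A) partners 11 were detected, led by the poly(A)-binding protein PABPC1 at 225 ± 20.7 RPKM and EIF4EBP1, the mTOR target that sequesters EIF4E, at 131 ± 26.6. At the low end PDCD4, an inhibitor of the EIF4A helicase, had 1.70 ± 0.606 RPKM and EIF4EBP3 was listed at 0 with 100% of its exons inside other genes. Of 9 genes of mTOR signalling 8 were detected, among them the ribosomal protein RPS6 at 175 ± 19.3 RPKM and the activator RHEB at 33.8 ± 2.05. The kinase RPS6KB1 lay at 1.41 ± 0.621 and AKT1S1 was listed at 0 and covered. EIF4EBP1 was thus listed far above EIF4E, whose own level rests on the lengths and GC values given above.

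Around EIF2, 6 of 7 kinase, phosphatase and target genes were detected. ATF4, the transcription factor translated when EIF2 is phosphorylated, had 165 ± 13.3 RPKM, and PPP1R15A, the inducible subunit that directs the phosphatase to EIF2, 55.4 ± 11.2. EIF2AK2, the interferon-inducible kinase that senses double-stranded RNA, had 10.1, 16.5 and 14.8 RPKM and was lowest in replicate 1. EIF2AK3, the endoplasmic reticulum stress kinase, had 2.55 ± 0.429, and the constitutive phosphatase subunit PPP1R15B was listed at 0 with 100% of its exons covered.

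Of 8 hypusine and diphthamide enzymes 6 were detected. DOHH, which completes hypusine on EIF5A, had 48.7 ± 11.2 RPKM, and DHPS, which starts it, was listed at 0 with 97.7% of its exons inside other genes. DPH5, of the pathway that modifies EEF2, had 8.51 RPKM, and DPH2, of the same pathway, was listed at 0 and covered. Of 8 termination and recycling genes 7 were detected, with the release factor ETF1 at 34.0 ± 3.06 RPKM and the recycling factor DENR at 25.6 ± 3.18. ABCE1, which splits ribosomes, had 2.06 ± 0.867 with 89.8% of its exons inside other genes, and the rescue factor PELO was listed at 0 with 100%. Of 8 mitochondrial and selenocysteine factors 6 were detected, with EEFSEC, the selenocysteine elongation factor, at 16.1 ± 2.94 RPKM and the mitochondrial initiation factor MTIF2 at 10.3 ± 3.04. TUFM, the mitochondrial counterpart of EEF1A, was listed at 0 although 2.55% of its exon length lay inside other spans, and TSFM was listed at 0 with 52.6%. Absence from the table was therefore not limited to covered genes.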

How the data were processed

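Poly(A) RNA of 3 RCC4 libraries was measured with a directional kit, per the labels' protocols. The submitters' processing notes name FastQC, cutadapt 1.18, HISAT2 2.1.0 and featureCounts 2.0.0 with hg38, whereas annotation release, strand setting and counting mode were not given in the sources used here. Each deposited value is a signal: a gene's count divided by its library's size factor (0.946, 0.971 and 1.24). The signal gave whole reads for 100% of nonzero values within 0.01 of a read, and these reads took the place of the counts that the design had assumed. Fewer genes had 1 read than 2 (269 against 1621 in replicate 1), so reads need not be independent molecules and limits cover counting error only.

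Reads were scaled with TMM (edgeR 4.0.16, R 4.3.3), with DESeq2 1.42.0 size factors as an alternative. Exon lengths, gene spans and GC content came from GENCODE 29 (GRCh38), which matched all 63 members. Ratios used a pseudocount of 0.1, pairs needed at least 10 reads in some library, and GC correction used 20 bins. For pairs it subtracted the median level of each bin, and for replicate 1 ratios the median ratio of each bin. Named were the 4 highest and 3 lowest members of each role list, both genes of each pair, members at 0, members past 2-fold in replicate 1, and the 2 highest and 2 lowest genes of each other list. EIF2AK2, EIF1AD, EIF2D, EIF3F, EIF3G, EIF3H, EIF3L, EIF3M and the pseudogenes other than EEF1A1P5 were named beyond that rule, after their values were seen. The members and lists were chosen with earlier results of these data known. Start windows came from RefSeq. In simulated libraries, replicate 1 changes of 0.25-fold and 0.5-fold were found past 2-fold for 50 and 23 of 50 genes. Of 11066 unchanged genes 81 were so called. The simulated biological coefficient of variation was 0.201 with no GC trend, below the 0.281 of all detected genes here. A true 0.5-fold change lies on the 2-fold cutoff itself. Because of these differences the simulated rates do not describe the measured libraries.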

Additional observations from a re-analysis of the deposited data

How the results depend on the processing

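The number of detected members, 50, was the same under DESeq2, total-read and deposited scaling and without any 1 replicate, was 51 at 0.1 CPM or 10 reads and 46 at 10 CPM. The median log2 level of all 63 members, the Y-linked one included, was 3.54 and became 3.65 with a pseudocount of 1, 4.23 over detected members, 3.9996 over uncovered exon length and 3.27 to 3.46 when a replicate was left out. The SD of log2 levels over 14 EIF3 genes, 3.31, became 2.73 over uncovered length, 4.05 on CPM, 2.24 with a pseudocount of 1 and 1.42 without covered or copied genes. The count of members past 2-fold in replicate 1 was 5, but 0 after GC correction, 11 at 1.5-fold, 4 under DESeq2 or deposited scaling, and 3 to 5 without replicate 2 or 3. The ratio of EIF5A2 reversed to 0.47 under GC correction, and that of EIF2B5 to EIF2B1 to 0.33 on CPM. Of 16 pairs, 14 passed the replicate spread, and 12 to 16 did under the alternatives. The common biological coefficient of variation of the detected members, 0.249, was 0.0722 without replicate 1 and up to 0.319 without another replicate. The cause of these shifts was not tested beyond what each alternative changes by construction. Few reads limit the values of EEF1A2, EIF4B and EIF2S2, with at most 141 in any library. For EIF4B and EIF2S2 most of the exon length also lay inside other spans. No paired analysis was possible because the labels give 1 group.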

Other observations

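Rows of processed pseudogenes of these factors, which the rule leaves out, numbered 137, and 20 of them had a read in every library. Their summed reads were 6766, 6376 and 7677, or 1.02%, 1.20% and 1.10% of the reads on members and pseudogenes together. EEF1A1P5 held most of them, with 5152, 4942 and 6055 reads, and 85.1% of its 50-base words also occur in EEF1A1. EIF3FP3 had 403, 352 and 427 reads and EIF5AP4 375, 285 and 351. EIF4BP7 had 220, 215 and 244 reads, more in each library than the 47, 94 and 77 of EIF4B itself, and 41.7% of its 50-base words occur in EIF4B. Whether these reads came from the parent genes was not tested.

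Replicates 2 and 3 were much closer to each other than either was to replicate 1. Over the detected members the chi-square per degree of freedom between libraries was 25.5 for replicates 2 and 3, against 235 for replicates 1 and 2 and 364 for replicates 1 and 3. These values only rank the distances between libraries, since biological replicates are not bound by counting noise. GC content also went with the ratio of replicate 3 to replicate 2 over these members, with a Spearman rho of -0.571 (n = 50), while no member differed more than 2-fold between those libraries.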
